A study of Caenorhabditis elegans with 2 samples.

Results

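The 9 genes described here encode enzymes and recognition factors of DNA mismatch repair, base excision repair and nucleotide excision repair in *Caenorhabditis elegans*, and what was measured at them is the binding of EFL-1, an E2F-type transcription factor of the worm. They were named as a list, *msh-2*, *msh-6*, *mlh-1*, *pms-2*, *ung-1*, *exo-3*, *nth-1*, *xpa-1* and *csb-1*, and make up 9 of 19985 protein-coding genes in the annotation used. Regions were taken where the summit lay in the gene body or up to 2000 bp upstream of the gene, called the gene window below. Chromatin immunoprecipitation followed by sequencing was done on whole young adult worms of pooled sexes, in 1 group of 2 biological replicates. The strain, YL445, carries the mutation unc119(ed3) on chromosome III and the transgene vrIs81, in which the *pie-1* promoter drives EFL-1 fused to GFP and FLAG, followed by the *efl-1* 3′ UTR, together with *unc-119* (+). Both replicates carry all of these alleles. The *pie-1* promoter is known for activity in the germline, and whether other tissues held the fusion was not examined here. The labels name both efl-1 and an eGFP fusion as the target. Worms without the transgene and a control library were not analysed here.

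Mismatch repair removes bases that the replicating polymerase paired wrongly. A MutS complex finds the mismatch and a MutL complex directs the removal of the new strand. Base excision repair begins with a glycosylase that cuts out a damaged base and continues with an endonuclease that cuts the backbone at the empty site. Nucleotide excision repair removes bulky lesions such as those made by ultraviolet light, after recognition across the genome or at a stalled RNA polymerase. E2F factors are known for binding upstream of genes for DNA synthesis and the cell cycle, several of which also serve repair.

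The strongest region at any of the 9 genes lay upstream of *xpa-1*, a gene of nucleotide excision repair, and 6 of the 9 had no peak in the authors' optimal list. That list held 2498 peaks with signal values from 34.9 to 1564 and a median of 71.1. The authors describe a reproducibility threshold, but the list equalled the 2498 regions of highest signal among those of the pooled replicates. Being in it thus does not show that both replicates had a region at that place. Of the 2498 peaks, 57 had no overlapping region in replicate 1, that of *exo-3* among them. Of the 9 genes, 3 (33.3%) had an optimal peak in the gene window, namely *xpa-1* (signal 87.1, rank 1034), *exo-3* (46.2, rank 1896) and *msh-2* (45.7, rank 1918). Among all protein-coding genes 16.4% had one. Only the *xpa-1* peak of the 3 was above the list's median signal. Ranks count from the highest signal in a list, and rank 1 in the pooled list had a signal of 1564. In a narrower promoter window, which ran from 1000 bp before to 200 bp after any transcript's 5′ end, the same 3 genes had an optimal peak, against 12.6% of protein-coding genes. No test was made of these shares, since the genes were chosen as a list with earlier results known. The 3 genes lie on chromosome I, where 24.4% of genes had an optimal peak and where the other member, *msh-6*, had none. None of the 3 members on chromosome III (27.6% of its genes), the 1 on V (10.6%) or the 1 on X (3.88%) had one.

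**Figure D1:**
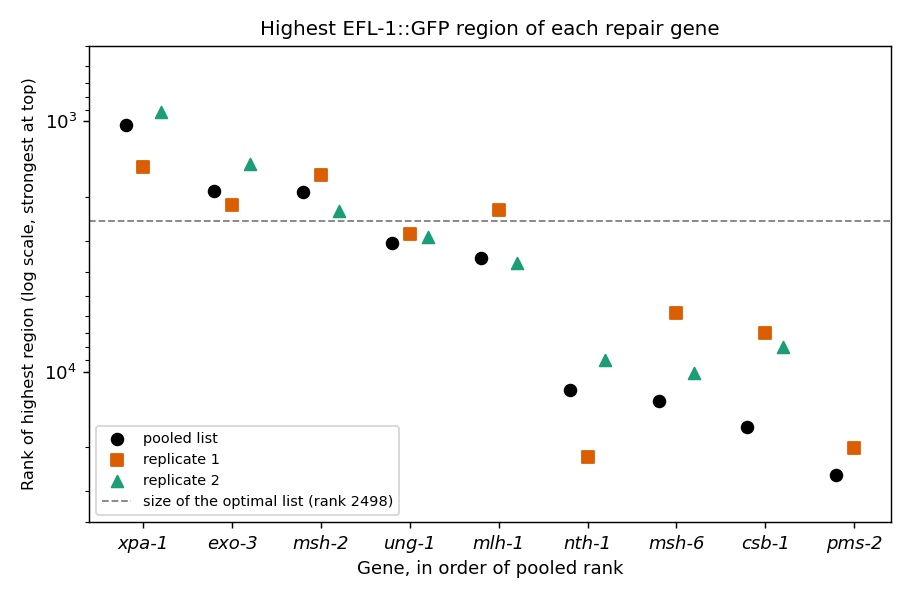
Rank of the highest region in the gene window of each of the 9 genes (vertical axis, log scale, strongest at top) in the pooled list and in each replicate's relaxed list, with the genes in order of pooled rank. The dashed line marks rank 2498, the size of the optimal list. *xpa-1*, *exo-3* and *msh-2* lie above it in all 3 lists, *exo-3* in replicate 1 by a region other than its optimal peak. *ung-1* lies just below it in all 3, and *pms-2* has no region in replicate 2.

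Below the optimal list, relaxed lists of 30000 regions per replicate and for the pooled reads hold weaker peaks and background. Each member had at least 1 pooled relaxed region in its window, as did 67.6% of all protein-coding genes. The 9 windows held 31 pooled regions, of which 20 ranked beyond 10000. The median of the members' highest pooled signals was 25.3, against 10.1 over all protein-coding genes, with genes lacking a region counted as 0. The median rank of the members' highest region was 3524 in the pooled list, 2833 in replicate 1 and 3679 in replicate 2.

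E2F proteins are known to recognise a short core sequence, and none of the 9 genes had that core at its highest region. The core was searched as TTNNCGC, with C or G at each N, on either strand and no farther than 50 bp from a summit. A match may share bases with one of the second motif described below. It was present at 0 of 3 optimal peaks of the members and at 0 of 9 of their highest pooled regions. Over all optimal peaks it was present at 768 of 2498 summits (30.7%), and over windows 500 bp to either side at 4.10%. Over the 2498 pooled regions just below the optimal list it was present at 15.1%, and over those ranked beyond 20000 at 4.74%. The highest regions of *nth-1*, *msh-6*, *csb-1* and *pms-2* were weak, at ranks from 11866 to 25813. With 3 and 9 positions, no test was made of either count. Cores did occur elsewhere in these windows, and the first sequence below comes from outside them. The sequences that follow show the core, in capitals, where it came closest to a gene's 5′ end or to a strong peak on a chromosome other than I. They are taken from the RefSeq copy of WBcel235 (ce11 coordinates) and read 5′ to 3′.
Peak of *mcm-5*, next to the 3′ end of *nth-1*, chrIII:4291443-4291471, plus strand: tttgaaaatttTTGGCGCccgcgcctcac
Intron of *ung-1*, chrIII:11974009-11974037, minus strand: ctaaacggtatTTCCCGCtctgaaaattc
Coding exon of *ung-1*, chrIII:11973930-11973958, minus strand: tccggaaaaagTTCCCGCgggcaatgaaa
Upstream of *nth-1*, chrIII:4295133-4295161, plus strand: attctattgatTTGGCGCttctcttctat
The first of these lies 7 bp from the summit of a strong optimal peak. The pair in *ung-1*, at +73 and +152 bp from the gene's 5′ end, lies inside a pooled region of rank 22524 among 30000. In replicate 2 a region of rank 11057, with its summit at -63 bp, holds the core at +73 bp. The core upstream of *nth-1*, at -894 bp, lies in the 3′ UTR of *R10E4.6* and the 5′ UTR of *R10E4.7*. This core lies inside no pooled region, and the nearest pooled summit is 991 bp away. A replicate 2 region of rank 22763, with its summit at -1046 bp, holds it. A match is a description of letters and was not tested as a binding site.

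The genes of mismatch recognition differed from each other. *msh-2* (WBGene00003418, chromosome I at 3694296 to 3697551, minus strand) encodes a MutS subunit, and *msh-6* encodes the partner with which it binds mismatches. The *msh-2* peak lay at 3697698 to 3698033, between genes, and its summit stood at -315 bp. Its signal was 16.2 in replicate 1 (rank 1633) and 28.2 in replicate 2 (rank 2288), and the summits of the replicates stood 6 bp apart. For comparison, the replicates' summits at optimal peaks stood a median of 23 bp apart, over the 2440 peaks with a region in both. Both replicates thus placed the *msh-2* region within their own 2498 highest regions and at nearly the same base. The peak is not that of *msh-2* alone. It lies between *msh-2* and *hus-1*, which encodes a subunit of the checkpoint clamp that senses DNA damage, and its summit was nearer to the 5′ end of *hus-1*, at -236 bp. An E2F core at -594 bp from *msh-2* lay in a coding exon of *hus-1*, 279 bp from the summit and outside the peak. The genes whose optimal peaks had the most similar ranks in the pooled list and both replicates were *dnj-10* and *Y55B1AR.2*, with summed log2 rank differences over these 3 lists of 0.0944 and 0.116.

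*msh-6* (WBGene00003422, chromosome I at 3449326 to 3462174, plus strand) had no optimal peak over the 14849 bp of its window, the longest of the 9. Its 5 pooled regions had signals between 8.14 and 11.2. The highest, at rank 13066, lay at -1692 bp in a coding exon of the upstream neighbour *nefr-1*. Replicate 2 had its highest *msh-6* region at the same place (rank 10102), whereas that of replicate 1 lay in an intron at +3606 bp (rank 5831), so the replicates did not share a leading region. Regions with an E2F core within 50 bp were found in introns at +7502 bp (rank 13395) and +11631 bp (rank 15146). The regions next to the 5′ end were weak, at -48 bp in replicate 2 (rank 27181) and at +168 bp in replicate 1 (rank 20519).

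Of the MutL genes, *mlh-1* had a region of rank 3524, below the optimal list, and *pms-2* had almost none. *mlh-1* (WBGene00003373, chromosome III at 13509301 to 13514570, minus strand) and *pms-2* (WBGene00004064, chromosome V at 11566801 to 11570601, minus strand) encode the partners of the MutL dimer. The highest pooled region of *mlh-1* lay at 13514723 to 13515058 with its summit at -321 bp in intergenic DNA, between *mlh-1* and the 3′ end of *pod-1*. Its signal was 25.3 (rank 3524), and the lowest peak of the optimal list had 34.9. In replicate 1 it ranked 2263, with a signal of 12.5 and a summit at -323 bp. Replicate 2 had regions overlapping the pooled one, with summits at -137 bp (rank 3679), -336 bp (rank 9018) and -563 bp (rank 9623). The last of these summits lay in the 3′ UTR of *pod-1*. *mlh-1* was therefore within the 2498 highest regions of replicate 1 and outside those of replicate 2. The leading summits of the replicates stood 186 bp apart, where the upper quartile for optimal peaks was 46.0 bp. The only pooled region of *pms-2*, at -946 bp, ranked 25813, with a signal of 7.67, in an intron of *nhr-101* and the 3′ UTR of *H12C20.7*. Replicate 1 held 2 *pms-2* regions, of ranks 20254 and 27301, and replicate 2 held none.

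**Figure D2:**
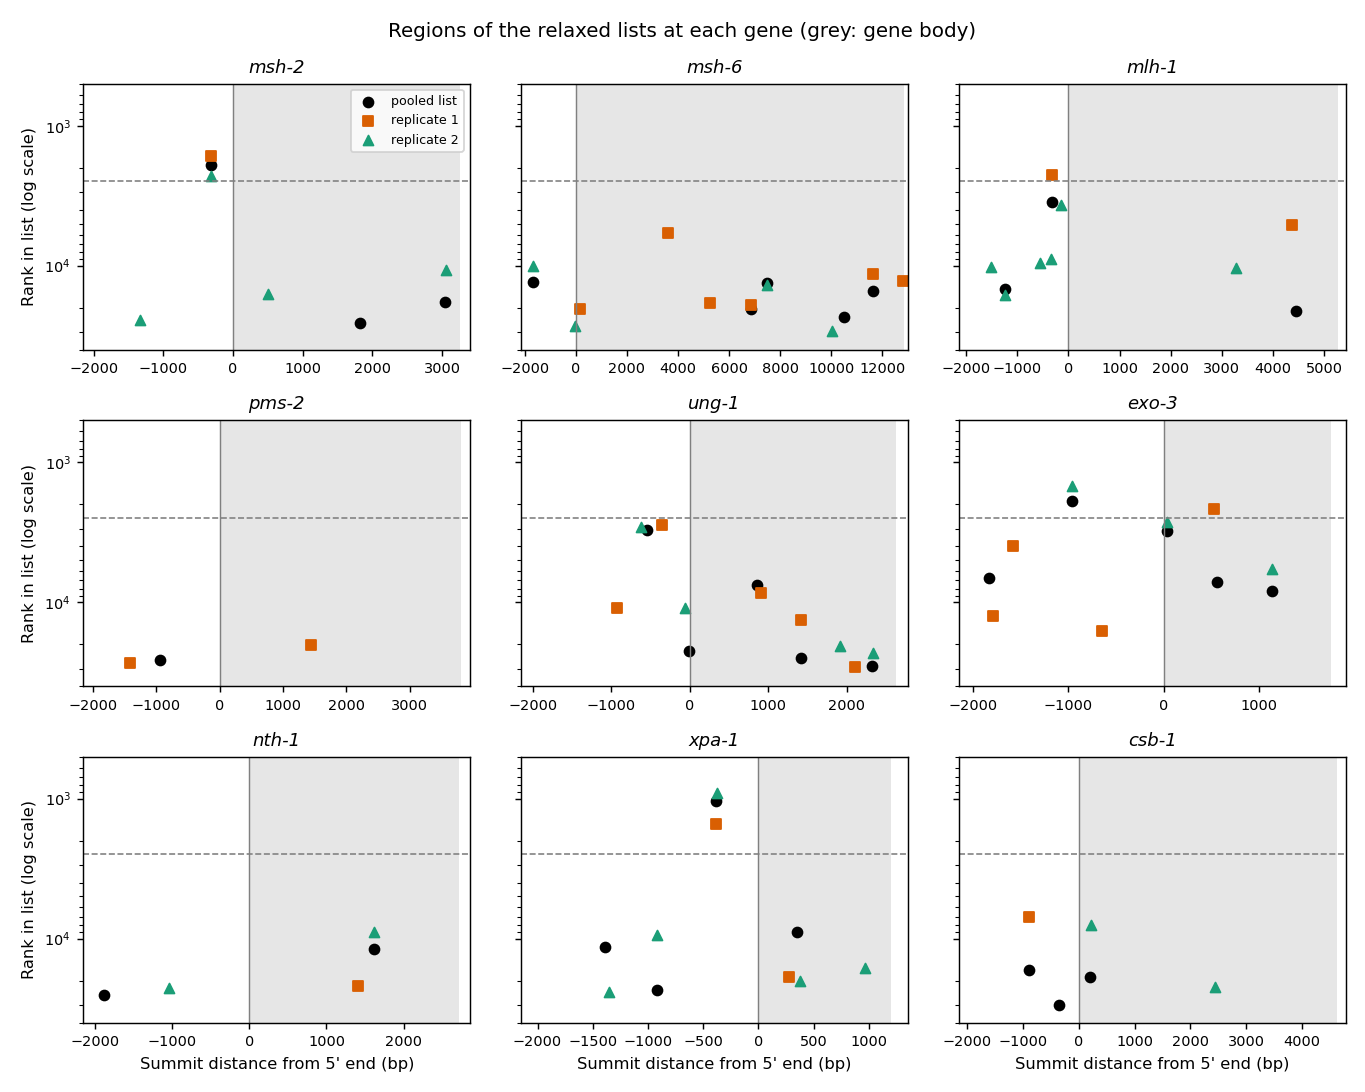
All regions of the pooled and replicate relaxed lists in the gene window of each of the 9 genes, with the summit's distance from the gene's 5′ end in bp (horizontal axis, upstream negative) and its rank (vertical axis, log scale, strongest at top). Grey marks the gene body and the dashed line rank 2498; the 3 lists coincide upstream of *msh-2* and *xpa-1*, whereas the regions of the replicates at *exo-3* lie in different places.

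Base excision repair begins at uracil with *ung-1*, a uracil DNA glycosylase gene, and at oxidised bases with *nth-1*, a gene for a glycosylase of the endonuclease III family. *ung-1* (WBGene00013241, chromosome III at 11971467 to 11974096, minus strand) came closest to the optimal list among the genes without a peak. Its highest pooled region, at 11974469 to 11974804, had a signal of 28.8 and rank 3052. The signal was 10.99 in replicate 1 (rank 2833) and 22.6 in replicate 2 (rank 2893). The ranks of the replicates were close, but their summits were 267 bp apart, at -349 and -616 bp, with the pooled summit at -541 bp between them. For optimal peaks the upper quartile of this distance was 46.0 bp. The pooled summit lay in introns of the overlapping genes *Y56A3A.30* and *Y56A3A.31*, on opposite strands, and was nearest to the 5′ end of *Y56A3A.31*, at +160 bp. A region at the 5′ end of *ung-1* itself, with its summit at -4 bp in the pooled list, ranked 22524. Replicate 2 had a region there with its summit at -63 bp, a signal of 8.60 and rank 11057, and replicate 1 had no region overlapping the 5′ end.

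*nth-1* (WBGene00011201, chromosome III at 4291543 to 4294253, minus strand) had no region of its own above rank 9025 in any list, although a strong peak touched the end of the gene. The highest pooled region in its window, of rank 11866 and signal 11.8, lay in a coding exon at +1609 bp from the gene's outermost 5′ end and +157 bp from that of a shorter transcript. It ranked 9025 in replicate 2, at +1619 bp. The highest region of replicate 1 lay at +1409 bp, which is -43 bp from the 5′ end of that shorter transcript, and ranked 21960. The windows of *mcm-5* (at -1378 bp) and *R10E4.6* (at -764 bp) held the pooled summit as well. The strong peak, at 4291312 to 4291621, overlapped the last 79 bp of *nth-1* and had its summit 79 bp beyond the gene, at -198 bp from *mcm-5*, a gene for a subunit of the replicative helicase. It had a signal of 421 and rank 128, and ranked 167 in replicate 1 and 121 in replicate 2. Its core is the *mcm-5* sequence printed above. Counting any overlap of a region in place of its summit would therefore give *nth-1* an optimal peak and bring the count of members to 4 of 9, against 17.4% of protein-coding genes.

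*exo-3* (WBGene00001372, chromosome I at 11907525 to 11909280, minus strand) encodes an endonuclease that cuts at sites without a base, and the replicates differed most in where its regions lay among the 3 genes with an optimal peak. The optimal peak, at 11910078 to 11910413, had its summit at -966 bp, between genes. It was nearer to *rbm-3.1*, a gene on the same strand, at -255 bp, and the window of *ubc-12* held it as well, at -1074 bp. Replicate 2 had it at rank 1477, with a signal of 44.4. Replicate 1 had no region there, and its nearest region lay 6 bp beyond the edge of the peak, at rank 16230. Optimal peaks without an overlapping region in replicate 1 numbered 57 of 2498 (2.28%), and 1 lacked one in replicate 2. A further pooled region lay over the 5′ end of *exo-3*, with its summit in the 5′ UTR at +37 bp, a signal of 28.4 and rank 3113. That region too was present in replicate 2, at the same base and rank 2676, and not in replicate 1. The highest *exo-3* region of replicate 1 lay in an intron at +529 bp (rank 2163, signal 12.9), 1491 bp from the leading summit of replicate 2. An E2F core was found near a weaker region at -1828 bp (rank 6762), which lay between *rbm-3.2* and *ubc-12*.

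For nucleotide excision repair, *xpa-1* (WBGene00006963, chromosome I at 7159714 to 7160917, plus strand) encodes the factor that verifies the lesion and helps to assemble the incision complex. Its peak, at 7159165 to 7159500, lay between genes with the summit at -381 bp, and it was the 1 optimal peak among the 3 for which the member had the nearest 5′ end. The signal was 17.3 in replicate 1 (rank 1525) and 70.4 in replicate 2 (rank 916). The summits of the replicates were 10 bp apart. *xpa-1* had the highest rank of the 9 genes in the pooled list and in both replicates. The region of replicate 2 was narrow, at 84 bp, against a median width of 330 bp in that list. The summit also fell within the window of the downstream gene *mks-6*, at -1603 bp. A weaker region at -920 bp, of rank 23314 in the pooled list and 9495 in replicate 2, held an E2F core 4 bp from its summit. The genes with the most similar ranks over the 3 lists were *natc-3* and *ostb-1*, with summed log2 rank differences of 0.131 and 0.147.

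*csb-1* (WBGene00000803, chromosome X at 15861294 to 15865918, minus strand) encodes the factor that couples repair to a stalled RNA polymerase. It had 3 pooled regions, of ranks 16688, 18787 and 29727, at -888, +204 and -353 bp. The highest region of replicate 1 lay at -895 bp (rank 7002) in an intron of *F53H4.4*. That of replicate 2 lay at +218 bp (rank 7981) in a coding exon of *csb-1*. The replicates thus had similar ranks at places 1113 bp apart.

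**Figure D3:**
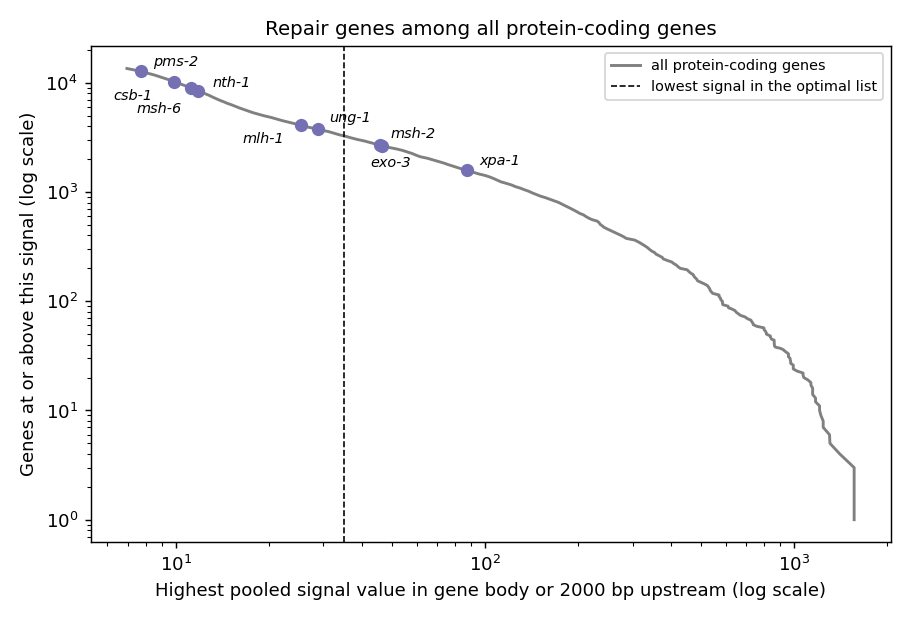
Number of protein-coding genes (vertical axis, log scale) whose highest pooled signal in the gene window is at or above a given signal value (horizontal axis, log scale). Points place the 9 genes on this curve, and the dashed line marks the lowest signal of the optimal list, 34.9; *xpa-1*, *exo-3* and *msh-2* lie to its right, and *nth-1*, *msh-6*, *csb-1* and *pms-2* lie at signals of 11.8 and below.

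The order of the 9 genes was partly shared between the replicates. In the pooled list *xpa-1* stood above 92.1% of protein-coding genes by its highest signal, *exo-3* above 86.7%, *msh-2* above 86.6%, *ung-1* above 81.3% and *mlh-1* above 79.6%. *nth-1* stood above 57.5%, *msh-6* above 55.3%, *csb-1* above 48.8% and *pms-2* above 36.4%. The first 5 genes were also the first 5 in each replicate. Within them, *exo-3* and *msh-2* changed places, with *msh-2* higher in replicate 1 and *exo-3* higher in replicate 2, and so did *mlh-1* and *ung-1*, with *mlh-1* higher in replicate 1. These pairs are not separated beyond the difference between replicates. For *exo-3*, the replicate 1 rank was that of its intron region at +529 bp, since replicate 1 had no region at the optimal peak. Among the lower 4, *nth-1* ranked last in replicate 1, and *csb-1* and *msh-6* changed places. The calls were also counted under other rules. Giving each summit only to the gene with the nearest 5′ end left 1 of 9 members, *xpa-1*, against 10.4% of protein-coding genes in the gene window and 9.09% in the promoter window. Within 500 bp before and 200 bp after the 5′ end, 2 members had an optimal peak (10.4% of genes). With 2000 bp before it 3 had one (14.5%), as in the gene body or up to 1000 bp upstream (13.8%). The upper 50% of optimal peaks held 1 member (9.40% of genes in the gene window and 7.42% in the promoter window). Optimal peaks found in the top 2498 regions of each replicate held 2 (12.8%). The 2498 highest regions of replicate 1 alone gave 4 members in the gene window (16.0%) and 3 in the promoter window (11.8%), and those of replicate 2 gave 3 (16.2%) and 3 (12.3%). Any relaxed region was present at 9 members in replicate 1 (72.3% of genes) and at 8 in replicate 2 (67.4%).

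A weak region may be background, and it cannot show whether EFL-1::GFP was present in few cells or was weakly bound in many.

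The lowest signal of the optimal list was 34.9, at rank 2498. By signal, the members' regions nearest to it within the list were those of *exo-3* and *msh-2*, at 46.2 and 45.7 (ranks 1896 and 1918). Nearest below, at ranks 3052 to 3524, were *ung-1* at 28.8, the region at the 5′ end of *exo-3* at 28.4 and *mlh-1* at 25.3. The deposited −log10 q-value did not follow this order. It was 2.32, 2.33 and 2.30 for these 3 regions outside the list, and 2.20, 2.22 and 2.22 for the optimal peaks of *xpa-1*, *exo-3* and *msh-2*. The next region of any member, at -1828 bp from *exo-3*, had 0.865.

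A second motif, TTNGAA with C or T at the N, resembles the cell cycle homology region that the DREAM complex is known to bind. It was searched on both strands, with the palindromic form counted once. It lay within 50 bp of the highest pooled summit in 6 of 9 members and at 1 of their 3 optimal peaks, that of *exo-3*. These letters are common in worm DNA, at 38.8% of all optimal summits, 29.4% of flanking windows and 36.4% of the pooled regions ranked beyond 20000. The matches nearest to the highest pooled summits of *mlh-1* (17 bp away) and *ung-1* (24 bp away), both below the optimal list, are shown with the motif in capitals.
Upstream of *mlh-1*, chrIII:13514861-13514888, minus strand: ttttaggggaaTTTGAAtttatttttaa
Upstream of *ung-1*, chrIII:11974600-11974627, plus strand: gaaatgtctcgTTTGAAtggggtggcgg
The share at the highest pooled regions (66.7%) was above these background shares and that at the optimal peaks (33.3%) was near them. With 9 and 3 positions, no test was made of either.

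Genes of the same pathways and MutS homologues of meiotic crossover formation were listed as partners of the 9, and several had much stronger peaks. Of 27 partner genes, 15 had an optimal peak in the gene window, where 16.4% of all protein-coding genes had one, and 13 in the promoter window, where 12.6% had one. Without *pnk-1*, which stands among them by an error of naming, these were 15 and 13 of 26. The partners of mismatch repair had one in the promoter window in 6 of 7 cases. They were led by *pcn-1*, the sliding clamp gene (signal 605), *rpa-1*, a gene for a subunit of replication protein A (572), and *exo-1*, an exonuclease gene (149.8). *him-14* and *msh-5* are MutS homologues of meiotic crossover formation, listed here beside mismatch repair and not for a role in it. Both are in the counts above. *him-14* had no peak in the promoter window but had one in the gene window, at rank 555. *msh-5* had one in the promoter window (57.4, rank 1573). Except for *exo-1*, the leaders serve DNA replication as well as repair. When each summit went only to the gene with the nearest 5′ end, 8 of the 27 partners kept a promoter peak, against 9.09% of protein-coding genes. By list, it was 3 of 7 for mismatch repair, 3 of 7 for base excision repair and 2 of 14 for nucleotide excision repair.

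The partners of base excision repair had a promoter peak in 4 of 7 cases, beside 12.6% of all protein-coding genes. They were led by *dut-1*, whose enzyme keeps uracil out of DNA (345), *crn-1*, a flap endonuclease gene (229), and *lig-1*, a DNA ligase gene (119.5) that also stands in the mismatch repair list. *apn-1*, a second gene for an endonuclease at sites without a base, *parp-2* and *pnk-1* had none. *pnk-1* is known to encode a pantothenate kinase, and without it the count was 4 of 6. The partners of nucleotide excision repair had a promoter peak in 4 of 14 cases, beside the same 12.6%. They were led by *uvs-1* (248.5), *xpf-1*, an incision nuclease gene (203), and *ddb-1* (149.6). *xpc-1* and *rad-23*, genes for the damage sensor, and *ercc-1*, which encodes the partner of XPF-1, had none. In the gene window 5 of the 14 had an optimal peak, beside 16.4% of all protein-coding genes. The median of the highest pooled signal per gene was 149.8 for the mismatch repair partners, 59.2 for those of base excision repair (89.3 without *pnk-1*) and 21.2 for those of nucleotide excision repair, beside 25.3 for the 9 genes.

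**Figure D4:**
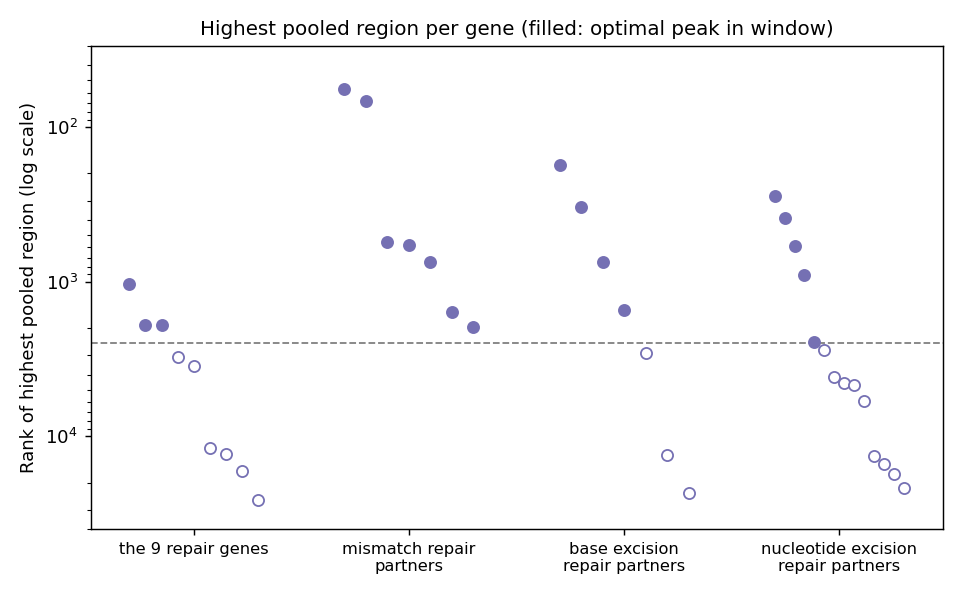
Rank of the highest pooled region in the gene window of each gene (vertical axis, log scale, strongest at top) for the 9 repair genes and 3 lists of partner genes, where filled points had an optimal peak in the window. The dashed line marks rank 2498. All 7 genes of the mismatch repair list, with the meiotic genes *him-14* and *msh-5* among them, lie above it. They run from *pcn-1* at rank 57 to *rpa-2* at rank 1958, and *lig-1* is drawn in the mismatch and the base excision lists.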

How the data were processed

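The deposited files were peak lists of 10 columns, which the description deposited with each sample names narrowPeak. Per the same description, each replicate has a relaxed list made against a control, the pooled replicates have another, and an optimal list follows from them under a reproducibility (IDR) threshold. Column 7 of the deposited lists holds the authors' signal value, whose scale is not stated, and column 9 their −log10 q-value. Not given in the sources used here are the aligner, the peak caller and the threshold's value. Depth is unknown, so ranks within a list were compared and levels were not tested. The ce11 lists were used, and the ce10 lists were not used here. The optimal list equalled the 2498 regions of highest signal in the pooled list. Summits are the region start plus column 10. Genes came from Ensembl release 115. Bases were read from RefSeq's WBcel235, in whose chromosome lengths all regions lay.

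Windows were assigned with Python 3.11.15 and pandas 2.3.3, tested on simulated summits. A summit could belong to several genes. Worm 5′ ends are often trans-splice sites or starts within operons, which were not annotated here. Overlap means at least 1 bp. Likeness of ranks used the sum of absolute log2 rank differences, and 2 genes were named per member with a promoter peak, except *exo-3*, for which it was not computed because its peak had no overlapping region in replicate 1. From each partner list up to 3 genes with the highest promoter signal and up to 3 without a peak were named, with *msh-5* in addition. The members, lists and windows were chosen with earlier results of these data known, and no p-value is given. Samples were grouped by their labels.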

Additional observations from a re-analysis of the deposited data

How the results depend on the processing

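The count of members with an optimal peak was 3 of 9. Giving each summit to the gene with the nearest 5′ end only left 1 member in the gene window and 1 in the promoter window, *xpa-1*, because the other peaks lie nearer to *hus-1* and *rbm-3.1*. The upper 50% of optimal peaks also left 1 in either window. Any pooled relaxed region gave 9. Over all protein-coding genes the count of 3269 became 2075 with the nearest gene only, 2072 with 500 bp upstream to 200 bp downstream, 1878 in the upper 50% of peaks and 13501 with any pooled relaxed region. With the 500 bp window 2 members remained, *msh-2* and *xpa-1*, as among optimal peaks that each replicate had in its top 2498 regions. Leaving out a replicate, by using the other's 2498 highest regions, gave 3 to 4 members and 3197 to 3237 protein-coding genes in the gene window, and 3 members each time in the promoter window. Without replicate 2 these promoter members were *msh-2*, *mlh-1* and *xpa-1*, so that *exo-3* gave way to *mlh-1*. The median rank of the members' highest regions ran from 2833 to 3679 without one replicate. The count of E2F cores at the members' optimal peaks stayed 0 within 100 bp and anywhere in the peak. With 2 replicates and unknown depth, differences between neighbouring ranks are not resolved. No paired analysis was possible because there was 1 group.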

Other observations

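Other repair pathways gave counts on either side of that of the 9 genes. Homologous recombination genes had a promoter peak in 3 of 8 cases, beside 12.6% of all protein-coding genes. They were led by *brc-1* (signal 108), the recombinase gene *rad-51* (92.7) and *rad-54.L* (61.2), with *brd-1*, *brc-2* and *rfs-1* lacking one. *brd-1* did have an optimal peak in the gene window, at rank 1785. Crosslink repair genes had one in 2 of 8 cases, beside the same 12.6%, namely *fcd-2* (463) and *fan-1* (125), with *fnci-1*, *slx-1* and *him-18* lacking one. Genes of translesion synthesis and end joining had one in 5 of 8 cases, again beside 12.6%, led by the translesion polymerase genes *polh-1* and *polk-1* (255 for each) and *polq-1* (174), with *rev-1*, *rev-3* and *cku-70* lacking one. With each summit given only to the gene with the nearest 5′ end, the counts of these 3 lists were 2, 2 and 3 of 8, beside 9.09% of genes. The differences between lists were not tested.

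An E2F core was present in the 2000 bp upstream of 4 of the 9 genes, namely *msh-2*, *exo-3*, *nth-1* and *xpa-1*, and of 43.8% of all protein-coding genes. Of the 20 cores inside the members' windows, 16 lay in gene bodies, and *msh-6*, the longest gene, held 8, all in introns.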
